A study of Mus musculus with 4 samples.

Results

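The genes described here drive the passage from G1 into S phase and copy the DNA: origin licensing factors, the replicative helicase and its activators, the sliding clamp and its loader, polymerases, nucleotide-supply enzymes, and the cyclins, kinases, E2F and pocket proteins that gate S-phase entry. They were chosen by name, from a list of 48 gene symbols, and not by a threshold on measured values. The list was drawn up with earlier results of these data known. All 48 were measured, out of 10926 genes in all, each by its brightest probe set (a probe set is a group of short probes for one transcript) with exactly 1 gene symbol. The cells were mouse brown adipocytes of wild-type genotype, the heat-producing cells of brown fat, differentiated for 6 days from preadipocytes that carried either a vector expressing Blnc1 (brown fat lncRNA 1, a long noncoding RNA) or the vector alone. Total RNA was hybridised to 4 Affymetrix arrays: 2 of Blnc1-expressing cells and 2 of vector cells. The titles call the replicates biological. Whether they stem from separate animals, isolations or transductions, and which promoter drove Blnc1, is not stated. Each p-value therefore sets a group difference against the spread between these arrays only, partly pooled over all probe sets.

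Before S phase, the origin recognition complex with Cdc6 and Cdt1 loads the ring of Mcm proteins onto DNA, and Cdc45 and the GINS complex then turn that ring into an active helicase. D-type cyclins with Cdk4 or Cdk6, and E-type cyclins with Cdk2, phosphorylate the retinoblastoma (pocket) proteins and so release E2F, the transcription factor that switches on many of the genes listed here. Preadipocytes stop dividing as they become fat cells, and many of these genes, though not all, are usually highest in dividing precursors. In a bulk RNA sample, fewer dividing cells and less RNA of these genes per cell cannot be told apart.

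The arrays held 23599 probe sets besides controls, with array medians between 5.98 and 6.04 on the log2 scale. The probe set of the Blnc1 transcript, annotated as C730029A08Rik, read 12.73 and 12.75 on the Blnc1 arrays, against 8.08 and 8.14 on the vector arrays, as the labels imply. Of the 8 measured brown adipocyte markers 6 rose and none fell. Their levels ran from 3.73 (Dio2) to 10.8 (Cox7a1) over the arrays. Ucp1 read 7.97 and 8.05 on the Blnc1 arrays, against 5.01 and 5.01 on the vector arrays, where it lay below the array medians. Of the 7 measured general adipocyte markers none passed the test (Fabp4 lay between 13.27 and 13.29 on all arrays). All 7 were at 9.17 or above on every array, so cells of both groups showed general adipocyte markers. Of the 5 measured preadipocyte and fibroblast markers none passed, and all 5 had negative log2 fold changes (median -0.16); summed, their level was 7.81 to 7.94 on Blnc1 arrays and 8.10 to 8.11 on vector arrays. The 2 measured macrophage, 1 endothelial and 3 skeletal muscle markers lay between 4.04 and 5.10 on all arrays, and none passed. Other things separated the same groups of arrays: all 18 spiked-in control probe sets were lower on the Blnc1 arrays (median difference -0.27), and 3 genes of the Y chromosome fell (Eif2s3y by 1.18, Uty by 1.02, Kdm5d by 0.87) while Xist rose by 0.55 (log2). RNA quality, read as the excess of 3' over 5' signal (log2), gave 0.29 and 0.27 on Blnc1 arrays, against 0.38 and 0.45 on vector arrays, for Gapdh. For beta-actin it gave 1.29 and 1.40 on Blnc1 arrays, against 1.47 and 1.56 on vector arrays. The part of these differences in the values below was not tested.

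No G1/S or replication gene passed the test between Blnc1 and vector cells. By limma with Benjamini-Hochberg adjustment over all 23599 probe sets, 0 of the 48 genes reached an adjusted p under 0.05, where 1.23% of all genes did (94 higher and 40 lower in Blnc1 cells, or 0.860% and 0.366%; 108 higher and 79 lower with each array centred on its median). At an unadjusted p under 0.05 there were 4 higher and 4 lower genes among the 48, against 20.7% of all genes in either direction (11.7% higher and 9.08% lower). The smallest adjusted p was 0.109, that of the cyclin D2 gene Ccnd2. With a variance prior that follows the expression level, 4 of the 48 passed (Gins2, Rfc3 and Rpa3 higher, Ccnd2 lower). In that setting 1237 of all 10926 genes passed. With only probe sets above the median level, 3 of the 45 genes kept passed (Gins2 and Rfc3 higher, Ccnd2 lower). In that setting 612 of 6517 genes passed.

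The log2 fold changes of the 48 genes, Blnc1 minus vector, ran between -0.44 (Fen1) and 0.33 (Rfc3). Their median was -0.057, against 0.0073 over all genes, and 30 were negative, or 62.5%, against 48.4% of all genes. Without Blnc1 replicate 2 the median was -0.0083. For 45 of the 48 genes the 95% interval of the log2 fold change lay inside a 1.5-fold change in either direction, against 89.9% of all genes. The exceptions were Mcm3 (-0.68 to -0.062), Rfc5 (-0.61 to 0.043) and Fen1 (-0.97 to 0.095). Both Blnc1 arrays lay above both vector arrays for 12 genes and below them for 17, where such separation in either direction was seen for 53.2% of all genes (28.3% above and 24.9% below).

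**Figure D1:**
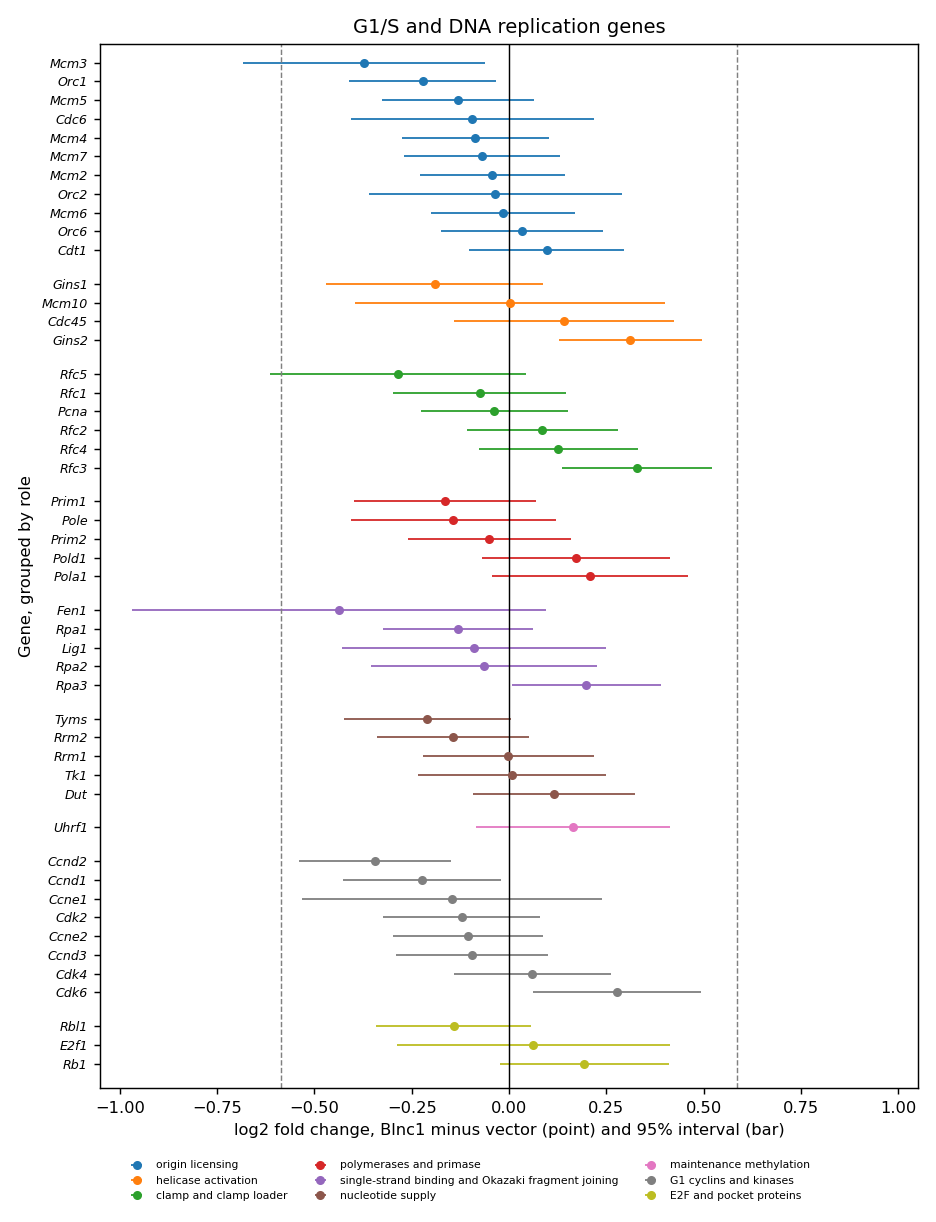
The log2 fold change (Blnc1 minus vector) of each of the 48 genes is plotted as a point with its 95% interval as a bar, grouped and coloured by role, with a solid line at 0 and dashed lines at a 1.5-fold change. All points lie between -0.44 and 0.33, and the bars of Mcm3, Rfc5 and Fen1 cross a dashed line.

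What the genes share at their promoters was read from RefSeq sequence (build GRCm38.p6), in windows of 300 bases that run from 250 bases before to 50 bases after an annotated start. Windows were found for 38 of the 48 genes (45 windows). The E2F motif was searched as TTTCCCGC, TTTCGCGC, TTTGCCGC or TTTGGCGC on either strand; matches can overlap. It was present in 31.1% of these windows (14 of 45), against 2.26% of all 32851 windows and 3.91% of the 11318 windows of genes measured on the arrays. The other G1/S and replication genes had it in 27.8% of windows, and the G2/M and mitosis genes in 3.23% (1 of 31). The 14 genes with a motif had a median log2 fold change of -0.079 (9 negative) and the 24 genes with windows but no motif one of -0.037 (14 negative). Values ran from -0.37 to 0.33 with the motif and from -0.44 to 0.28 without it. A match is a string of letters and not a measured binding site. The windows below belong to the 4 genes with the smallest unadjusted p among those with a motif, and show where the motif sits in genes of licensing (Mcm3, Orc1), clamp loading (Rfc3) and priming (Pola1). Each is written 5′ to 3′ along the gene, with the motif or its reverse complement in capitals.
Rfc3, chr5:151651159-151651458, minus strand: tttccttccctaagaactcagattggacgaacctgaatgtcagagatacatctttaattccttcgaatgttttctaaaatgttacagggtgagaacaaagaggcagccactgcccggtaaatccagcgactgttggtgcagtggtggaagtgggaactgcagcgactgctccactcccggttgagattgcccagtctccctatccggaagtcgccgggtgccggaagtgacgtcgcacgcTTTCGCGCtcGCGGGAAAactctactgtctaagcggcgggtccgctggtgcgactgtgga
Mcm3, chr1:20820263-20820562, minus strand: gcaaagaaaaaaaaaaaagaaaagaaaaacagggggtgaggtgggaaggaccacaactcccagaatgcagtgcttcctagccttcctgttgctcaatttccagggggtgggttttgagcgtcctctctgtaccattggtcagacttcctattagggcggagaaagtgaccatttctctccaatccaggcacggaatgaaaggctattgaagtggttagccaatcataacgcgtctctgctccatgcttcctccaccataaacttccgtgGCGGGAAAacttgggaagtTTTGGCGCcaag
Orc1, chr4:108579204-108579503, plus strand: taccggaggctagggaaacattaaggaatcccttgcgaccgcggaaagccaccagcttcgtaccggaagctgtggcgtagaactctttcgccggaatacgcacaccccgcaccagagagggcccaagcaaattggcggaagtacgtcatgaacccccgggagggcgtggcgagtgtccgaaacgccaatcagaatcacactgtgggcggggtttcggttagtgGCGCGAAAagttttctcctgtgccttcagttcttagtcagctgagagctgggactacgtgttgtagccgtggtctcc
Pola1, chrX:93632106-93632405, minus strand: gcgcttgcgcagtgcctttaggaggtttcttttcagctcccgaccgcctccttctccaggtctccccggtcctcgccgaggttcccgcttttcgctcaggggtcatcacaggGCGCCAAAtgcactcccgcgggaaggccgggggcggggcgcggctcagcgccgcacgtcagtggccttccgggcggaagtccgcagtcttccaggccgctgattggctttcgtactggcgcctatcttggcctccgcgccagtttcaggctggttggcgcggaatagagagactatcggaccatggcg
In Rfc3 the motif began 10 bases before the annotated start, with a reverse match from base 1 of the transcript. In Mcm3 both matches lay after the start, from bases 20 and 39. In Orc1 the match began 27 bases and in Pola1 138 bases before the start.

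Origin licensing genes leaned slightly to the negative side. Of the 11 measured, none passed, where 1.23% of all genes did. A negative log2 fold change was seen for 9 of the 11, against 48.4% of all genes. The median was -0.069, against 0.0073 over all genes, and the groups overlapped for 5 of the 11. Mcm3, a subunit of the hexameric helicase ring, read 6.54 and 6.19 on the Blnc1 arrays, against 6.74 and 6.74 on the vector arrays. Both Blnc1 arrays were lower, but they differed from each other by more than the vector arrays did. Its log2 fold change of -0.37 ± 0.13 (SE) did not pass (limma adjusted p = 0.199), and its dimmer probe set stood at -0.11. The other ring subunits were closer to 0: Mcm2, Mcm4, Mcm5, Mcm6 and Mcm7 lay between -0.13 and -0.016. Mcm2 read 9.95 and 9.91 on the Blnc1 arrays, against 9.99 and 9.95 on the vector arrays, a gap of about the size of that between replicates. Its second probe set read 8.32 and 8.39 on the Blnc1 arrays, against 8.51 and 8.54 on the vector arrays, with no overlap (-0.17, limma adjusted p = 0.312). All 6 ring subunits thus had negative values, and none was past the test.

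Among the origin recognition complex genes, Orc1, the largest subunit, read 5.15 and 5.21 on the Blnc1 arrays, against 5.39 and 5.42 on the vector arrays. The groups did not overlap (log2 fold change -0.22 ± 0.077 SE, limma adjusted p = 0.206), and the second probe set of Orc1 stood at -0.034. Orc2 (-0.035) and Orc6 (0.034) overlapped between groups on the probe sets used. The second probe set of Orc2 stood at -0.11 without overlap, and the third at 0.073 with overlap. The loading factor Cdc6 stood at -0.095, also with overlap. Cdt1, its partner in loading the helicase, read 11.06 and 11.07 on the Blnc1 arrays, against 10.91 and 11.02 on the vector arrays. Both of its probe sets were higher on the Blnc1 arrays, at 0.097 and 0.20, and neither passed.

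The helicase activators pointed in both directions. Gins2, a subunit of the GINS complex, read 8.25 and 8.24 on the Blnc1 arrays, against 7.92 and 7.94 on the vector arrays, a gap far wider than that between replicates. Its log2 fold change was 0.31 ± 0.075 (SE, limma adjusted p = 0.115; 0.0185 with a level-dependent prior, and 0.0185 to 0.899 over the alternatives). The second probe set of Gins2 gave -0.033 (7.28 and 7.38 on the Blnc1 arrays, against 7.30 and 7.42 on the vector arrays), so the probe sets disagree; the brighter one has the suffix of probe sets shared between transcripts. Gins1, another GINS subunit, stood at -0.19 with both Blnc1 arrays lower. Cdc45, which joins GINS and the Mcm ring, stood at 0.14, and the initiation factor Mcm10 at 0.0019, both with overlap. The dimmer probe set of Mcm10 stood at 0.21 with both Blnc1 arrays higher (limma adjusted p = 0.328).

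The sliding clamp gene lay close to 0. Pcna, the ring that tethers polymerases to DNA and a common marker of proliferation, read 11.88 and 11.83 on the Blnc1 arrays, against 11.92 and 11.87 on the vector arrays. Its log2 fold change was -0.038, with a 95% interval of -0.23 to 0.15. The 5 subunits of the clamp loader, replication factor C, had values of both signs. Rfc3 read 7.70 and 7.62 on the Blnc1 arrays, against 7.34 and 7.32 on the vector arrays. This was the largest positive value of the 48 genes (0.33 ± 0.079 SE, limma adjusted p = 0.115; 0.0291 with a level-dependent prior, and 0.0291 to 0.763 over the alternatives), and the second probe set of Rfc3 stood at 0.065. Rfc5 read 8.40 and 8.14 on the Blnc1 arrays, against 8.70 and 8.42 on the vector arrays. Replicate 1 was the higher array in both groups, and the Rfc5 groups were separated by a narrow margin (-0.29 ± 0.13 SE, limma adjusted p = 0.321). Rfc1 stood at -0.076, Rfc2 at 0.086 and Rfc4 at 0.13, and all 3 probe sets of Rfc2 were positive (0.035 to 0.17).

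Polymerase and primase genes lay on both sides of 0, and none of the 5 passed. Pola1, the catalytic subunit of the priming polymerase alpha, read 8.77 and 8.56 on the Blnc1 arrays, against 8.39 and 8.52 on the vector arrays (0.21 ± 0.10 SE, limma adjusted p = 0.342). The groups were separated, by less than the spread between the replicates. Pold1, the catalytic subunit of polymerase delta, stood at 0.17, and Pole, that of polymerase epsilon, at -0.14. The primase subunits Prim1 and Prim2 stood at -0.16 and -0.050, with negative values on all 4 of their probe sets.

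Among genes for single-strand binding and for joining Okazaki fragments, the 3 subunits of replication protein A differed in sign. Rpa3, the small subunit, read 9.98 and 9.90 on the Blnc1 arrays, against 9.75 and 9.73 on the vector arrays (0.20 ± 0.078 SE, limma adjusted p = 0.250; 0.0314 with a level-dependent prior, and 0.0314 to 0.573 over the alternatives). Rpa1, the large subunit, read 10.62 and 10.59 on the Blnc1 arrays, against 10.70 and 10.77 on the vector arrays. The Blnc1 arrays were therefore the higher ones for Rpa3 and the lower ones for Rpa1, without overlap in either case. Rpa2 stood at -0.063, with a second probe set at 0.29 on which Blnc1 replicate 1 read 6.78 and the other 3 arrays 5.88 to 6.04. Fen1, the flap endonuclease that trims Okazaki fragments, had the most negative value of the 48 genes, -0.44 ± 0.22 (SE), and the widest spread. It read 6.91 and 6.43 on the Blnc1 arrays, against 7.37 and 6.85 on the vector arrays, so replicate 2 was low in both groups and the groups overlapped (limma adjusted p = 0.347). Lig1, the ligase that seals the fragments, stood at -0.089.

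**Figure D2:**
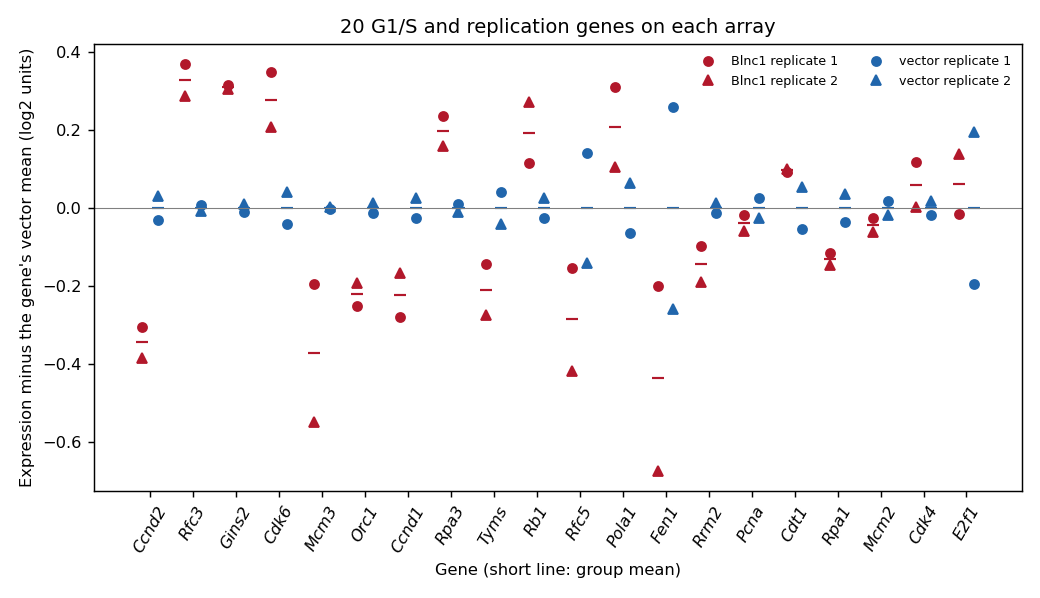
Each array's expression is plotted for 20 genes as the difference from the gene's vector mean (log2 units), with Blnc1 arrays in red left of vector arrays in blue, circles for replicate 1, triangles for replicate 2 and short lines for group means. Gins2 shows tight, separated groups, while the replicates of Fen1 and Rfc5 lie far apart and Fen1's groups overlap.

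Nucleotide-supply genes lay between -0.21 and 0.12, with a median of -0.0018 over the 5. Tyms, thymidylate synthase, read 9.27 and 9.14 on the Blnc1 arrays, against 9.46 and 9.38 on the vector arrays. The groups did not overlap (-0.21 ± 0.087 SE, limma adjusted p = 0.272), and the dimmer probe set of Tyms gave 0.0064. Rrm2, the S-phase subunit of ribonucleotide reductase, read 10.55 and 10.46 on the Blnc1 arrays, against 10.63 and 10.66 on the vector arrays. Its partner Rrm1 stood at -0.0018, thymidine kinase Tk1 at 0.0073 and the dUTP-hydrolysing enzyme Dut at 0.12. Uhrf1, which reads hemimethylated DNA behind the fork and recruits the maintenance methyltransferase, stood at 0.17 with both Blnc1 arrays higher.

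The 5 genes of the cyclins that start the cycle were all on the negative side. Ccnd2, encoding cyclin D2, read 9.60 and 9.52 on the Blnc1 arrays, against 9.87 and 9.93 on the vector arrays. The groups were well separated (log2 fold change -0.34 ± 0.080 SE, 95% interval -0.54 to -0.15), and the value did not pass (limma adjusted p = 0.109; 0.00232 with a level-dependent prior, and 0.00232 to 0.353 over the alternatives). All 5 probe sets of Ccnd2 were negative, between -0.56 and -0.12, and on 4 of them both Blnc1 arrays lay below both vector arrays. These probe sets read one gene in the same 4 RNA samples and are not replicates of it.

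Ccnd1, encoding cyclin D1, read 5.93 and 6.05 on the Blnc1 arrays, against 6.19 and 6.24 on the vector arrays (-0.22 ± 0.083 SE, limma adjusted p = 0.228). Its second probe set read 5.74 and 5.55 on the Blnc1 arrays, against 6.15 and 6.08 on the vector arrays, and had the smallest adjusted p of any probe set of the 48 genes (-0.47 ± 0.095 SE, limma adjusted p = 0.0873). The third and dimmest probe set of Ccnd1 stood at 0.029. Ccnd3 stood at -0.094 and the E-type cyclins Ccne1 and Ccne2 at -0.15 and -0.11. All 5 cyclin genes were thus negative on the probe sets used, where 48.4% of all genes were, and none passed.

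The kinases that these cyclins activate had values of both signs. Cdk6, a partner of the D cyclins, read 6.44 and 6.30 on the Blnc1 arrays, against 6.05 and 6.13 on the vector arrays (0.28 ± 0.088 SE, limma adjusted p = 0.181). Its other probe set was higher on the Blnc1 arrays by a similar amount (0.32), again with no overlap. Cdk4, the other partner, read 8.79 and 8.67 on the Blnc1 arrays, against 8.65 and 8.69 on the vector arrays. Its 3 probe sets lay between 0.060 and 0.13, and on 2 of them both Blnc1 arrays lay above both vector arrays. Cdk2, the partner of the E cyclins, stood at -0.12.

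**Figure D3:**
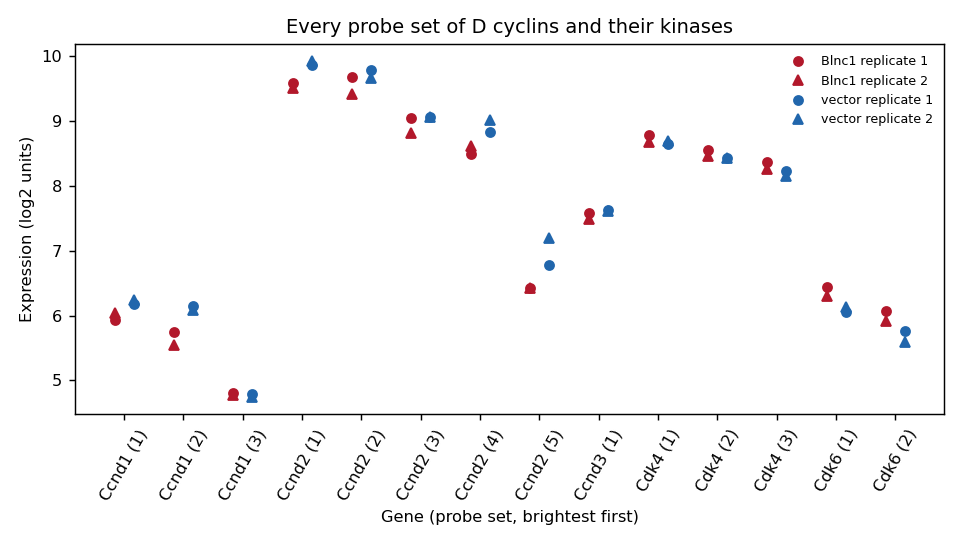
Expression (log2 units) is plotted on each array for every probe set of Ccnd1, Ccnd2, Ccnd3, Cdk4 and Cdk6, brightest first within a gene, with Blnc1 arrays in red left of vector arrays in blue. The Blnc1 arrays lie lower on 4 of 5 Ccnd2 probe sets, on 2 of 3 Ccnd1 probe sets and on the Ccnd3 probe set. They lie higher on both Cdk6 probe sets and on 2 of 3 Cdk4 probe sets. Levels of different probe sets are not comparable.

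The transcription factor and pocket protein genes at the G1/S switch had values of both signs. E2f1, the best-known activator E2F, read 6.51 and 6.66 on the Blnc1 arrays, against 6.32 and 6.72 on the vector arrays, so that the vector arrays enclosed the Blnc1 arrays. Rb1, the retinoblastoma protein that holds E2F in check, read 9.32 and 9.47 on the Blnc1 arrays, against 9.18 and 9.23 on the vector arrays (0.19 ± 0.089 SE, limma adjusted p = 0.312). Its relative Rbl1, encoding p107, stood at -0.14 with both Blnc1 arrays lower. None of the 3 passed.

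Further probe sets existed for 27 of the 48 genes. Of these 34 probe sets 28 had the sign of the one used and 6 the opposite sign, and none of either kind passed the test, where 0.928% of all probe sets did. None of the 6 with the opposite sign had an unadjusted p under 0.05.

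The rest of the pathway gave the same count of 0, where 1.23% of all genes passed. Of 73 other G1/S and replication genes 62 were measured; 0 passed (limma, threshold as above; 5 higher and 7 lower at an unadjusted p under 0.05, where 11.7% and 9.08% of all genes were), 38 were negative, against 48.4% of all genes, and the median log2 fold change was -0.045 (0.011 without Blnc1 replicate 2). The value nearest to the threshold was positive: Cdkn2b, encoding the Cdk4 and Cdk6 inhibitor p15, read 8.03 and 8.08 on the Blnc1 arrays, against 7.23 and 7.48 on the vector arrays. Its groups were separated by more than the spread between replicates, and its value of 0.70 ± 0.11 (SE) missed the test (limma adjusted p = 0.0547). The other 6 CDK inhibitor genes lay between -0.43 and 0.17. Dbf4, the regulatory subunit of the kinase that fires origins, read 8.02 and 7.94 on the Blnc1 arrays, against 8.43 and 8.37 on the vector arrays (-0.42 ± 0.080 SE, limma adjusted p = 0.0775). Gins3, the GINS partner of Gins1 and Gins2, stood at -0.38, and the folate enzyme Shmt1 at 0.47 (limma adjusted p = 0.0866 and 0.107). Of the 4 GINS genes 3 were negative on the probe sets used (Gins4 at -0.046, with overlap). Gins2 was positive on the probe set used (0.31, groups separated) and stood at -0.033 on its second, with overlap.

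Genes of the later cell cycle stood further from 0 than the replication genes. Of 36 G2/M and mitosis genes 33 were measured, 32 of them with a negative log2 fold change, and the median was -0.28, against -0.057 for the 48 G1/S and replication genes. Both Blnc1 arrays lay below both vector arrays for 27 of the 33, against 24.9% of all genes, and 2 fell, against 0.366% of all genes. The kinase gene Ttk, which acts in the spindle checkpoint, read 6.27 and 6.20 on the Blnc1 arrays, against 6.91 and 7.01 on the vector arrays (-0.72 ± 0.083 SE, limma adjusted p = 0.0348). Cdc20, the activator of the anaphase-promoting complex, stood at -0.59 (limma adjusted p = 0.0498), and Tpx2 and Kif20a, of the spindle and cytokinesis, at -0.53 and -0.51 without passing. Neither Ttk nor Cdc20 passed when any 1 array was left out. The count of 2 was 17 of 33 with a level-dependent prior, where 1237 of all 10926 genes passed in either direction. It was 11 of 28 with only probe sets above the median level, where 612 of 6517 genes passed. When probe sets were averaged it was 7, where 467 of all genes passed. Without moderated variances it was 0, where 0 of all genes passed. The difference between the lists is a description, and was not tested.

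**Figure D4:**
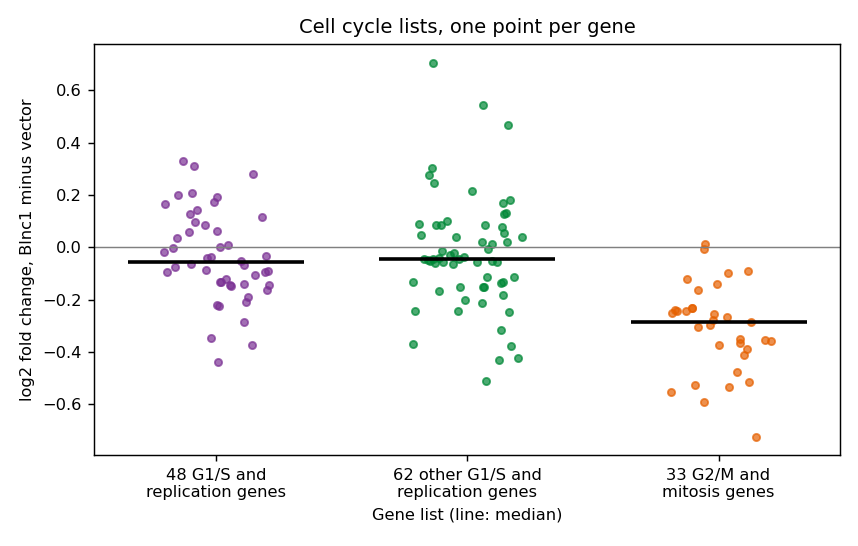
The log2 fold change (Blnc1 minus vector) is plotted for each measured gene of 3 lists, one point per gene, with a thick line at the median and a thin line at 0. The 48 G1/S and replication genes and the 62 other genes of that kind spread around 0 (medians -0.057 and -0.045), while 32 of the 33 G2/M and mitosis genes lie below it (median -0.28).

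The median shift of the replication genes between the groups was smaller than that between the Blnc1 replicates and larger than that between the vector replicates. These are unlike quantities: the group shift compares means of 2 arrays, and the replicate shifts compare single arrays, which vary more. Whether the group shift exceeds replicate noise was not tested. Between the Blnc1 arrays the median of the 48 genes differed by -0.078 (replicate 2 minus replicate 1), with 37 genes lower in replicate 2. Between the vector arrays it differed by -0.018, with 27 genes lower in replicate 2. The same medians over all genes were -0.039 and -0.0021. In size, without sign, the median was 0.13 log2 units between the groups, 0.11 between the Blnc1 arrays and 0.079 between the vector arrays. For the G2/M and mitosis genes the replicate medians were -0.087 (Blnc1) and 0.046 (vector), against the group median of -0.28.

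**Figure D5:**
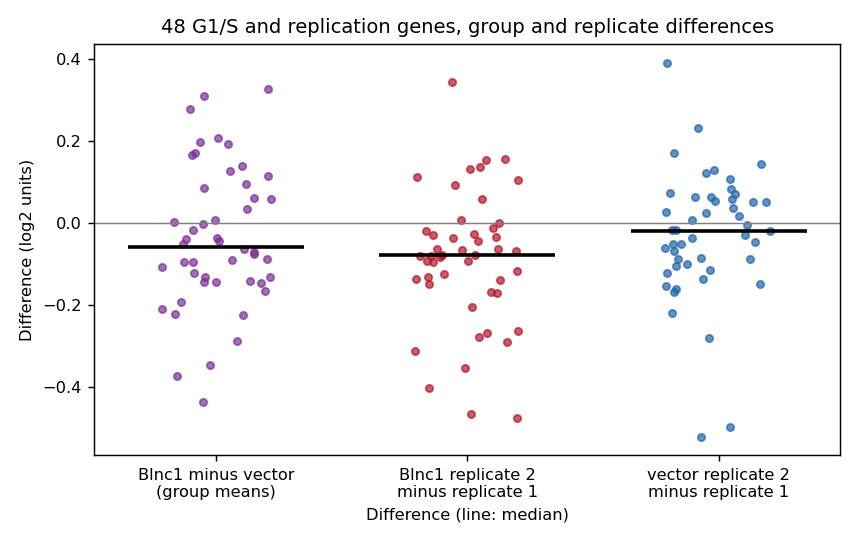
For each of the 48 genes the plot shows the difference between group means (Blnc1 minus vector), that between the Blnc1 replicates and that between the vector replicates, in log2 units, with thick lines at the medians of -0.057, -0.078 and -0.018. The 3 clouds of points overlap over most of their range.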

How the data were processed

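Biotin-labelled total RNA of 4 samples was read on 1-colour Affymetrix arrays, per the labels' protocols. In the deposited table each probe set has a log2 expression value per array; RMA, affy and limma are named as the authors' tools in the submitters' processing notes, with no versions or settings. The log2 scale was read from the values, which run from 2.70 to 13.3. RMA compresses changes of dim probe sets, and raw intensities were not used here. Groups came from the sample titles.

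Of 23599 probe sets besides 35 controls, 16692 had 1 gene symbol in the platform annotation, 372 had several and 6535 none. A gene was read by its brightest probe set (mean of the 4 arrays). Blnc1 was compared with vector by two-sided moderated tests without covariates (lmFit and eBayes of limma 3.58.1, R 4.3.3), with Benjamini-Hochberg adjustment over all probe sets, a threshold of 0.05 and no filter. Intervals are 95% intervals from that fit, which was tested on simulated data. The variance prior had 3.95 degrees of freedom. The number of arrays limits the precision. Lists were described by counts and medians only.

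The 48 genes and the other lists were chosen with earlier results of these data known. Values on every array are given for the 14 genes with the smallest p, the 3 brightest, and Pcna, Mcm2, Ccnd1, Cdk4, E2f1 and Rb1. From the other G1/S list and the G2/M list the 4 genes with the smallest p, and any past the threshold, were to be named; the remaining values are given as ranges or for members by role. List genes without a probe set of exactly 1 symbol were not analysed here. The alternatives were other variance priors and no moderation, repeated quantile normalization, median centring, 2 filters on probe sets, averaging each gene's probe sets, the replicate number as a block, leaving out each array, and thresholds of 0.01 and 0.1.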

Additional observations from a re-analysis of the deposited data

How the results depend on the processing

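The count of 0 genes among the 48 held in 13 of 15 alternatives. Not all of the 13 could have given more. A threshold of 0.01 cannot add genes to a count of 0, and without moderated variances 0 of all genes passed. The share of 13 of 15 is therefore no measure of how firm the count is. The count was 4 with a level-dependent prior. It was 3 of 45 with only probe sets above the median level, which tests fewer genes. Over all 10926 genes the count of 134 became 1237 in the first of these 2 settings, and 612 of 6517 genes in the second. It became 467 when averaging each gene's probe sets, 0 without moderated variances, and 3 or 545 at thresholds of 0.01 or 0.1. The count for the other G1/S and replication genes became 7 of 62 and 4 of 51 in the first 2 settings. With median centring it was 1 of 62, where 187 of all genes passed. Without probe sets ending in _x_at, _s_at or _a_at it was 1 of 54, where 173 of 9199 genes passed. It was 2 when averaging probe sets and 3 at a threshold of 0.1, each of 62. Apart from the alternative's own construction (fewer genes, another threshold), the cause was not tested. Replicate numbers are shared between groups, but nothing in the labels pairs them (replicate differences correlate at 0.089 between groups); with the replicate block 19 of all genes, 0 of the 48 and 0 of the G2/M genes passed.

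Leaving out 1 array gave 3 to 23 calls over all genes (3 without either Blnc1 array) and 0 among the 48 and among the other G1/S genes. Medians then ran from -0.076 to -0.0083 for the 48 genes and from -0.098 to 0.011 for the other G1/S genes, both nearest to or above 0 without Blnc1 replicate 2, and from -0.33 to -0.24 for the G2/M genes. The count of negative genes among the 48 ran from 25 to 33. A lone array is assumed to vary like the other group. Signs turned for E2f1 without Blnc1 replicate 2 (-0.014) and without vector replicate 1 (-0.13; it was 0.26 without vector replicate 2), and, without the _x_at, _s_at and _a_at probe sets, for Gins2 (-0.033) and Tyms (0.0064), where another probe set is read. Compression of dim probe sets and 2 arrays per group limit all of these values.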
